A study of Mus musculus with 55 samples.

Results

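The 9 genes described here encode subunits of Polycomb repressive complex 1 (PRC1). They are the chromobox genes Cbx2, Cbx6, Cbx7 and Cbx8, the RING E3 ligase genes Ring1 and Rnf2, the Pcgf-family gene Bmi1, and the polyhomeotic genes Phc1 and Phc2. They were taken by name from the 47937 genes of the bulk islet count table, of which 47224 had a GENCODE identifier that gave a symbol. All 9 were present and all 9 passed the filter on low counts, among 18685 genes tested in wild-type and βEedKO libraries and 18828 in all libraries.

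PRC1 is a chromatin complex that places a single ubiquitin on histone H2A (H2AK119ub) and compacts chromatin at silenced developmental genes. A RING ligase and a Pcgf protein form its catalytic core. In the canonical form the core carries a chromobox protein, whose chromodomain binds the H3K27me3 mark written by Polycomb repressive complex 2 (PRC2), and a polyhomeotic protein, whose SAM domain polymerises. EED is the PRC2 subunit that binds H3K27me3 and stimulates the methyltransferase, so in the βEedKO model the mark read by canonical PRC1 is removed from β cells.

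Whole islets of male C57B6/J mice were profiled by bulk RNA-seq at 8 and 25 weeks of age in 16 libraries. There were 3 wild-type, 3 heterozygous and 3 βEedKO (genotype Eed -/-) libraries at 8 weeks, and 3, 2 and 2 at 25 weeks. βEedKO animals are homozygous for a floxed Eed allele and carry RIP-cre, a transgene in which the insulin promoter drives Cre in β cells, so the α, δ and other cells of the islet keep Eed. The islets were hand-picked after collagenase digestion. The study's isolation method includes culture and its RNA method direct lysis of purified islets, so whether these libraries came from cultured islets is not clear. A library held the islets of a single animal or a small pool, with more animals for βEedKO at 25 weeks. Chromatin states came from a segmentation of wild-type islets only.

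Total counts ranged from 4645393 to 22925359 per library, with the smallest in wild type, 25 weeks, replicate 2. Levels are given as CPM, gene counts relative to library sizes scaled by the trimmed mean of M values (TMM). Eed itself measured 23.9, 33.1 and 31.2 CPM in wild type and 14.9, 13.4 and 14.8 CPM in βEedKO at 8 weeks, and 28.3, 21.97 and 19.3 against 15.6 and 14.2 CPM at 25 weeks. It was lower in every βEedKO library than in every wild-type library of its age, but did not pass the edgeR quasi-likelihood test (adjusted p = 0.0881 at 8 weeks and 0.142 at 25 weeks). Whole-gene counts include reads from islet cells that keep Eed. The summed level of 7 β cell markers, insulin genes included, was 122226 to 218368 CPM in wild type and 13850 to 17170 CPM in βEedKO at 25 weeks, with 6 of the 7 lower by the same test. In bulk RNA, fewer cells of a type and less RNA per cell cannot be told apart. Of the 8-week libraries, 4 stood apart. In wild type replicates 3 and 4 and βEedKO replicates 4 and 5, the summed level of 4 interferon-induced genes (Ifit1, Ifit3, Isg15 and Irf7) was 1866 to 3093 CPM, against 13.8 to 58.6 CPM in the other 12 libraries. All 3 heterozygous libraries at 8 weeks were among the 12.

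Per kb of exon, Bmi1 was the most abundant of the 9 transcripts in 5 of the 6 groups and Cbx2 the least abundant in all 6. In wild type at 25 weeks, Bmi1, whose protein pairs with the RING ligase in the canonical core, measured 23.6 ± 2.496 CPM per kb (mean ± SD, n = 3). Cbx7 followed at 17.8 ± 3.60, Rnf2 at 12.02 ± 0.512, Cbx6 at 9.84 ± 0.500, Phc2 at 8.21 ± 0.625, Phc1 at 7.45 ± 0.607 and Ring1 at 6.82 ± 1.5001 CPM per kb. Cbx8 was at 3.76 ± 2.08 and Cbx2 at 0.557 ± 0.154 CPM per kb. The libraries of Phc2, Phc1 and Ring1 overlapped with their neighbours in that order, and the others did not overlap with the next gene below.

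**Figure D1:**
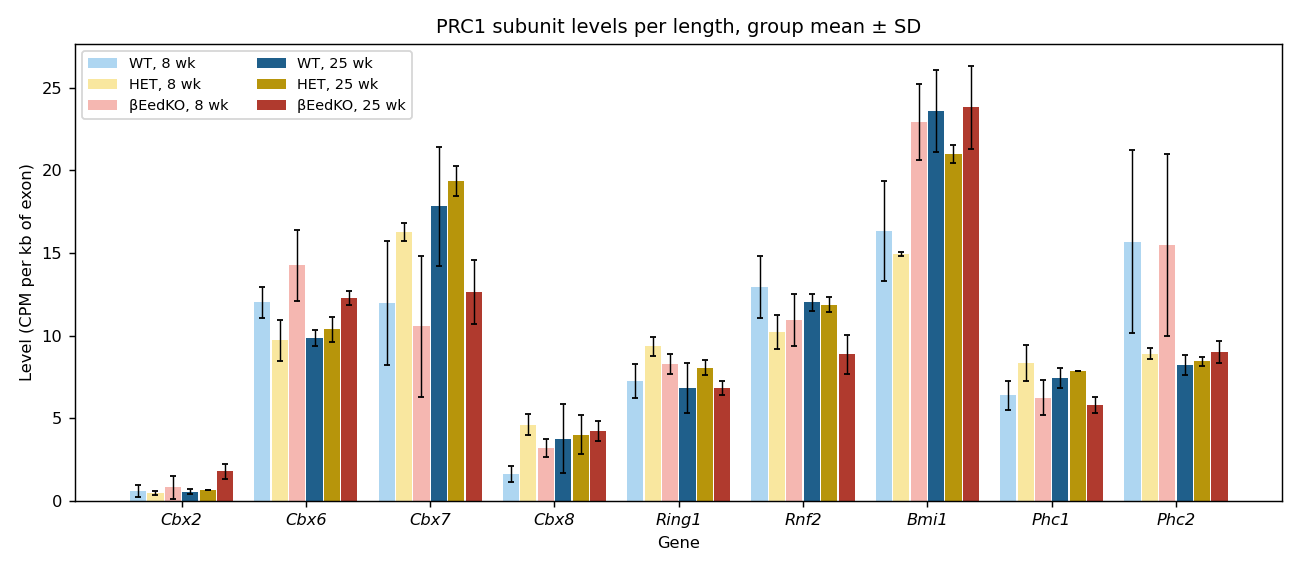
Group means of the 9 genes in CPM per kb of exon union (y axis) for the 6 groups, with error bars for the SD over 3 libraries, or over 2 for the heterozygous and βEedKO groups at 25 weeks. Bmi1 was highest in 5 groups and Cbx7 in heterozygous islets at 8 weeks, while Cbx2 was lowest in each.

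The order was less clear at 8 weeks. In wild type, Bmi1 (16.3 ± 3.05), Phc2 (15.7 ± 5.52), Rnf2 (12.9 ± 1.89), Cbx6 (12.01 ± 0.953) and Cbx7 (11.98 ± 3.75 CPM per kb, n = 3) each overlapped with the next. Ring1 (7.23 ± 1.04) and Phc1 (6.37 ± 0.887) formed a lower pair, and Cbx8 (1.62 ± 0.473) and Cbx2 (0.601 ± 0.359 CPM per kb) were lowest. In heterozygous islets at 8 weeks Cbx7 was first, at 16.2 ± 0.550 CPM per kb, above Bmi1 at 14.9 ± 0.142. In βEedKO the order began with Bmi1 at both ages, at 22.9 ± 2.31 and 23.8 ± 2.52 CPM per kb, and ended with Cbx2 at 0.814 ± 0.678 and 1.78 ± 0.445 CPM per kb. Divided by the longest transcript in place of the exon union, Phc2 in wild type at 8 weeks rose from 15.7 to 28.1 CPM per kb and passed Bmi1 at 18.1. In βEedKO at 8 weeks Phc2 passed Bmi1 as well, at 27.7 against 25.3 CPM per kb. The rank of Phc2 and the first place of Bmi1 in these groups depend on the length used.

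Among paralogs, Rnf2 made up 48.7 to 71.1% of the per-kb sum of Ring1 and Rnf2 over the 16 libraries, and it was the larger of the pair in 15 of 16. Bmi1 made up 67.9 to 83.0% of the sum of Bmi1 and its paralog Pcgf2. Cbx2 was 1.18 to 3.17% of the sum of the 4 chromobox members in wild type at both ages. In βEedKO it was 4.25, 2.02 and 1.46% at 8 weeks, and 4.605 and 6.99% at 25 weeks. Phc1 was 43.5 to 51.1% of the sum of Phc1 and Phc2 in wild type at 25 weeks, but 22.6 to 24.1% in the 4 interferon-high libraries. These shares are descriptions of RNA levels, with no test.

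In wild-type islets the annotated gene start of 6 of the 9 genes lay in an active start site state. States A and B of the segmentation mark active start sites at the nucleosome before and after the start. Cbx8, Ring1 and Rnf2 started in A, and Cbx2, Bmi1 and Phc1 in B. Among 25640 counted genes with a state at their start, 25.5% were in A and 12.2% in B. The other 3 were Cbx6 in L (a bivalent state with high H3K4me3, 11.3% of genes), Phc2 in C (a start site flank, 1.68%) and Cbx7 in Q (a mixed Polycomb and H3K9me3 state of weak signal, 3.15%). When the state with the largest coverage within 500 bp was taken instead, 6 of 9 were again in A or B, with Cbx6 now in A, while Cbx8 fell in L.

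The gene start is that of the outermost annotated transcript, and this decided the state of Cbx6, Cbx7 and Phc2. At least 1 transcript start in A or B was found for each of the 9 genes. For Cbx7, 5 of 9 transcripts started in A, between 79932516 and 79932768 of chromosome 15, well inside the annotated gene start at 79971119 where 2 transcripts began in Q. For Cbx6, 7 of 8 transcripts started in A or B. For Phc2, 7 of 12 transcripts began in A at an internal promoter, 2 in C at the outer start, 2 in X (quiescent) and 1 in H. Bmi1 started in B, but 4 of its 7 transcripts began farther in, in the bivalent state K.

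The windows of 250 bases upstream of the 3 RefSeq starts of Phc2 are shown because the same gene has 3 starts in 3 states, with that of Ring1 for comparison, a gene whose start lay in A. They are written 5′ to 3′ on the coding strand from the RefSeq promoter table (GRCm38.p6), and capitals mark CG dinucleotides, which are dense in the CpG islands that Polycomb complexes and active promoters share.

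Phc2, outer start, state C, chr4:128654452-128654701, plus strand: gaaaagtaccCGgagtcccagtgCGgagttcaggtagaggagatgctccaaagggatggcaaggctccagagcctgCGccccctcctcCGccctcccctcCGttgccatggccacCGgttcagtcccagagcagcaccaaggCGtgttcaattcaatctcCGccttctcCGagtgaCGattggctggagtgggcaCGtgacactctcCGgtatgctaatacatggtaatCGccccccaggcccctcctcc

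Phc2, middle start, state X, chr4:128688488-128688737, plus strand: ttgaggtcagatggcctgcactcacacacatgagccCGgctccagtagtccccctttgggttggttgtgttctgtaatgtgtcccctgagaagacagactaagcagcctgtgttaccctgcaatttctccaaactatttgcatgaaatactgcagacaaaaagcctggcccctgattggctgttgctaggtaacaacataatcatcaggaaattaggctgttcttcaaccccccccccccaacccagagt

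Phc2, inner start, state A, chr4:128727321-128727570, plus strand: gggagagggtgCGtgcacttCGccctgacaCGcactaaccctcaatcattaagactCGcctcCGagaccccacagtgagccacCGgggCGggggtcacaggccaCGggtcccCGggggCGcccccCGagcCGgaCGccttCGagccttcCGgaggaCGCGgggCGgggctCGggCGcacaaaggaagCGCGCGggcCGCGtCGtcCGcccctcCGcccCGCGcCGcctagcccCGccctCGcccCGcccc

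Ring1, state A, chr17:34024681-34024930, minus strand: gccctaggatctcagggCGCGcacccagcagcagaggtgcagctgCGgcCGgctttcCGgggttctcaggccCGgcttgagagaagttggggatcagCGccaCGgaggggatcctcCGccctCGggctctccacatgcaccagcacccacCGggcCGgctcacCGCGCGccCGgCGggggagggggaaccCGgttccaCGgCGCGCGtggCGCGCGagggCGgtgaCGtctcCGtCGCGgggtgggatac

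The outer Phc2 window held 13 CG dinucleotides, the middle window 1 and the inner window 34. The Ring1 window held 30. The median over all 32851 RefSeq promoter windows was 6. The RefSeq table gave 10 windows for 8 of the 9 genes, and the remaining one was Cbx2. CG counts in the other windows were 23 for Cbx7, 22 for Cbx8, 21 for Bmi1, 20 for Cbx6, 20 for Rnf2 and 8 for Phc1. The RefSeq starts of Cbx6 and Cbx7 lay in state A. Of the letters searched on both strands, the SP-type box GGGCGG was in 8 of the 10 windows and in 32.7% of all windows, and CCAAT in 4 of 10 and 33.8%. The interferon-response letters GAAANNGAA were in 0 of 10 windows and 7.13% of all, and the E2F forms TTTCGCGC and TTTGGCGC in 0 of 10, against 0.256 and 0.417% of all. These counts describe letters in the windows and not binding.

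Cbx2 and Cbx8 had state M, bivalent with high H3K27me3, around the start, and the other 7 genes did not. They are neighbours on chromosome 11 (GRCm38), Cbx2 at 119022962-119031270 on the plus strand and Cbx8 at 119036305-119040969 on the minus strand, 5034 bp apart. Of 51 positions sampled every 200 bp from 5 kb upstream to 5 kb downstream of the start, 17 lay in state M at Cbx2 and 30 at Cbx8. No position was in M at the other 7 genes. Among 9683 genes with a start in A or B, 4.65% had any position in M, 0.651% had as many as Cbx2, and 0.0723% had as many as Cbx8. Over all bivalent and Polycomb states, K to P, the 2 were again highest, with Cbx7 close behind, and no share of all genes was computed. The positions of Cbx7 lie around its outermost start in Q and not around its inner starts in A. Cbx8 had 37 positions, Cbx2 35, Cbx7 32, Phc1 21, Cbx6 20, Bmi1 19, Rnf2 8, Phc2 4 and Ring1 2. Segmentation states are labels with no level and come from pooled wild-type data, so they have no replicate error.

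**Figure D2:**
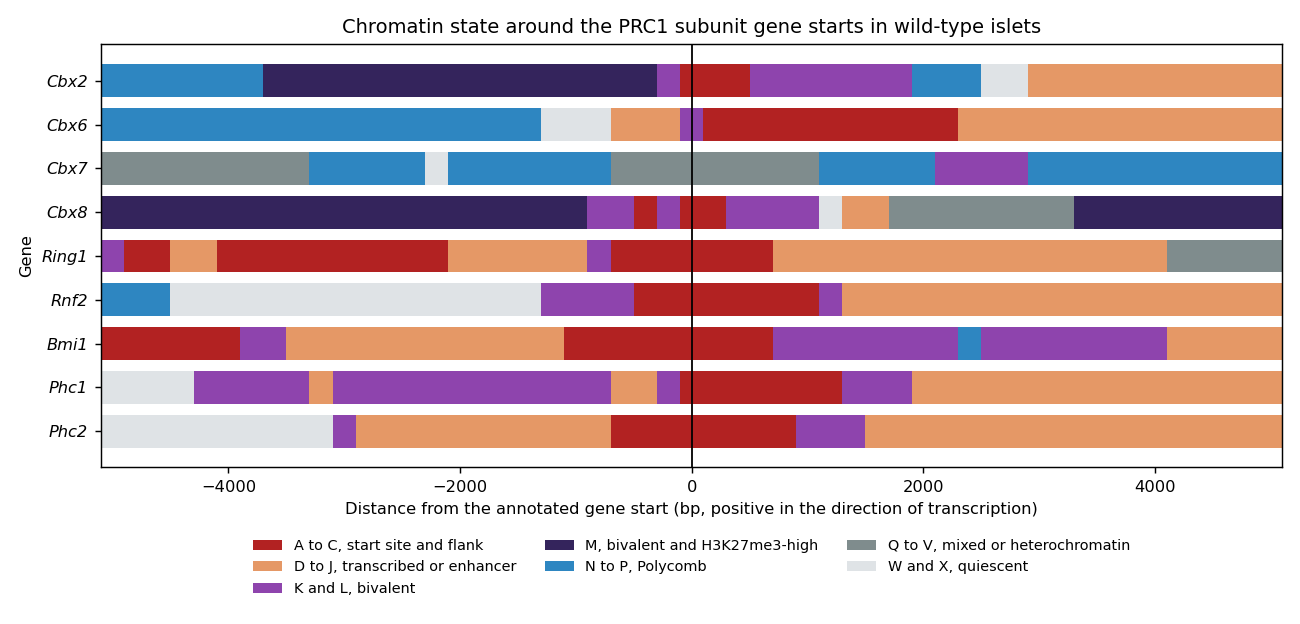
Chromatin state every 200 bp around the annotated gene start of each gene (x axis, distance in bp), coloured by group of states in wild-type islets. State M lies upstream of a narrow active start site at Cbx2 and on both sides of that at Cbx8, where the downstream stretch begins beyond K, X, I and V, while Cbx7 shows Polycomb and mixed states around its outermost start.

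The comparison of βEedKO with wild type at 25 weeks asks whether transcripts of PRC1 subunits change when PRC2 is lost from β cells. None of the 9 genes passed an adjusted p of 0.05 in edgeR's quasi-likelihood test, in a fit where 1234 of 18685 genes, or 6.6%, did. At an unadjusted p under 0.05 there were 2 of the 9, Cbx2 and Rnf2, against 20.3% of all genes, and DESeq2 also called 0 of 9, against 2070 genes or 6.78%. The median log2 fold change of the 9 genes was -0.04 and that of all genes tested 0.03. Without overlap between the groups, 2 genes were higher (Cbx2 and Cbx6) and 2 lower (Rnf2 and Phc1) in βEedKO, where 24.7% of all genes were higher and 15.9% lower.

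Cbx2, a chromobox protein with a strong chromatin-compacting domain, measured 2.40, 3.01 and 1.70 CPM in wild type and 6.24 and 8.92 CPM in βEedKO at 25 weeks. Both βEedKO libraries were above all 3 wild-type and both heterozygous libraries, the latter at 2.83 and 2.80 CPM. It was higher by 1.62 ± 0.65 (SE) on the log2 scale, with an edgeR adjusted p of 0.192. The counts behind these values were low, 11, 40 and 22 reads in wild type and 82 and 221 in βEedKO. Against a control made of both wild type and heterozygotes the log2 fold change was 1.57 (edgeR adjusted p = 0.0475), in a fit that called 14.1% of genes. A fit with the interferon class of the library as a batch term was added after the data were seen and called 13.6% of genes. In it the log2 fold change of Cbx2 was 1.62 (edgeR adjusted p = 0.0181). All 25-week libraries were of the low class, so this term does not adjust the comparison. It can change the p only through the spread estimated together with the 8-week libraries.

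At 8 weeks Cbx2 was 4.31, 1.51 and 1.85 CPM in wild type and 6.78, 2.06 and 1.56 CPM in βEedKO. The groups overlapped, and replicate 1 was the highest in each. Replicates 1 were also the only 8-week libraries of these genotypes with low interferon-induced genes. The 3 heterozygous libraries at 8 weeks, also of the low class, were at 2.16, 1.46 and 2.27 CPM, below both replicates 1. The log2 fold change was 0.45 ± 0.59 (edgeR adjusted p = 0.942), ranging from -0.48 without βEedKO replicate 1 to 1.01 without wild-type replicate 1. Within the interferon-high libraries the ratio of βEedKO to wild-type mean was 1.07, and between the 2 replicates 1 it was 1.57. The difference between the ages in the βEedKO effect was 1.17 ± 0.88 on the log2 scale and did not pass (edgeR adjusted p = 0.864). Among the 18827 other genes tested, the 3 with a pattern over the 16 libraries most like that of Cbx2 were Sema4g (Pearson r = 0.933), Prr36 (0.922) and Neurl1b (0.913), on log2 CPM. These are descriptions over libraries that share genotype, depth and cell composition.

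Rnf2 (RING1B), the main E3 ligase of PRC1 in many tissues, measured 51.9, 47.7 and 49.3 CPM in wild type and 33.2 and 40.04 CPM in βEedKO at 25 weeks. Both βEedKO libraries were below every wild-type and heterozygous library of that age, the heterozygous ones at 50.3 and 47.6 CPM. On the log2 scale the difference was -0.49 ± 0.22 (edgeR adjusted p = 0.237), and -0.49 with the interferon batch term (adjusted p = 0.0491). As for Cbx2, that term does not adjust a comparison at 25 weeks and acts on the p only through the shared spread. Scaled by total count alone, a setting that moved the median of all genes to 0.27, the log2 fold change of Rnf2 was -0.20. At 8 weeks the groups overlapped, with 44.4, 58.5 and 57.2 CPM in wild type and 38.7, 51.6 and 45.3 CPM in βEedKO (log2 fold change -0.24 ± 0.19, edgeR adjusted p = 0.857).

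Its paralog Ring1 did not separate the genotypes. Wild type was at 16.6, 24.1 and 25.7 CPM and βEedKO at 21.2 and 23.0 CPM at 25 weeks (log2 fold change -0.06 ± 0.23, edgeR adjusted p = 0.925). The sign of that value turned without wild-type replicate 4 at 25 weeks (0.05) and with library size as the only scaling (0.21). At 8 weeks the levels were 27.2, 20.8 and 22.4 CPM in wild type and 25.9, 25.6 and 29.2 CPM in βEedKO (0.20 ± 0.20, edgeR adjusted p = 0.905). An overlap of 158 bp with Trmt1l on the opposite strand touches Rnf2, and the library kit does not mark strand, so reads there cannot be assigned to either gene. On the same strand, Gm36527 covers 3029 bp of Rnf2, and Npcd covers 10342 bp of Cbx6, nearly the whole gene. Both were counted at low levels, 0.136 and 0.100 CPM on average, and how reads shared with them were counted is not given in the sources used here.

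**Figure D3:**
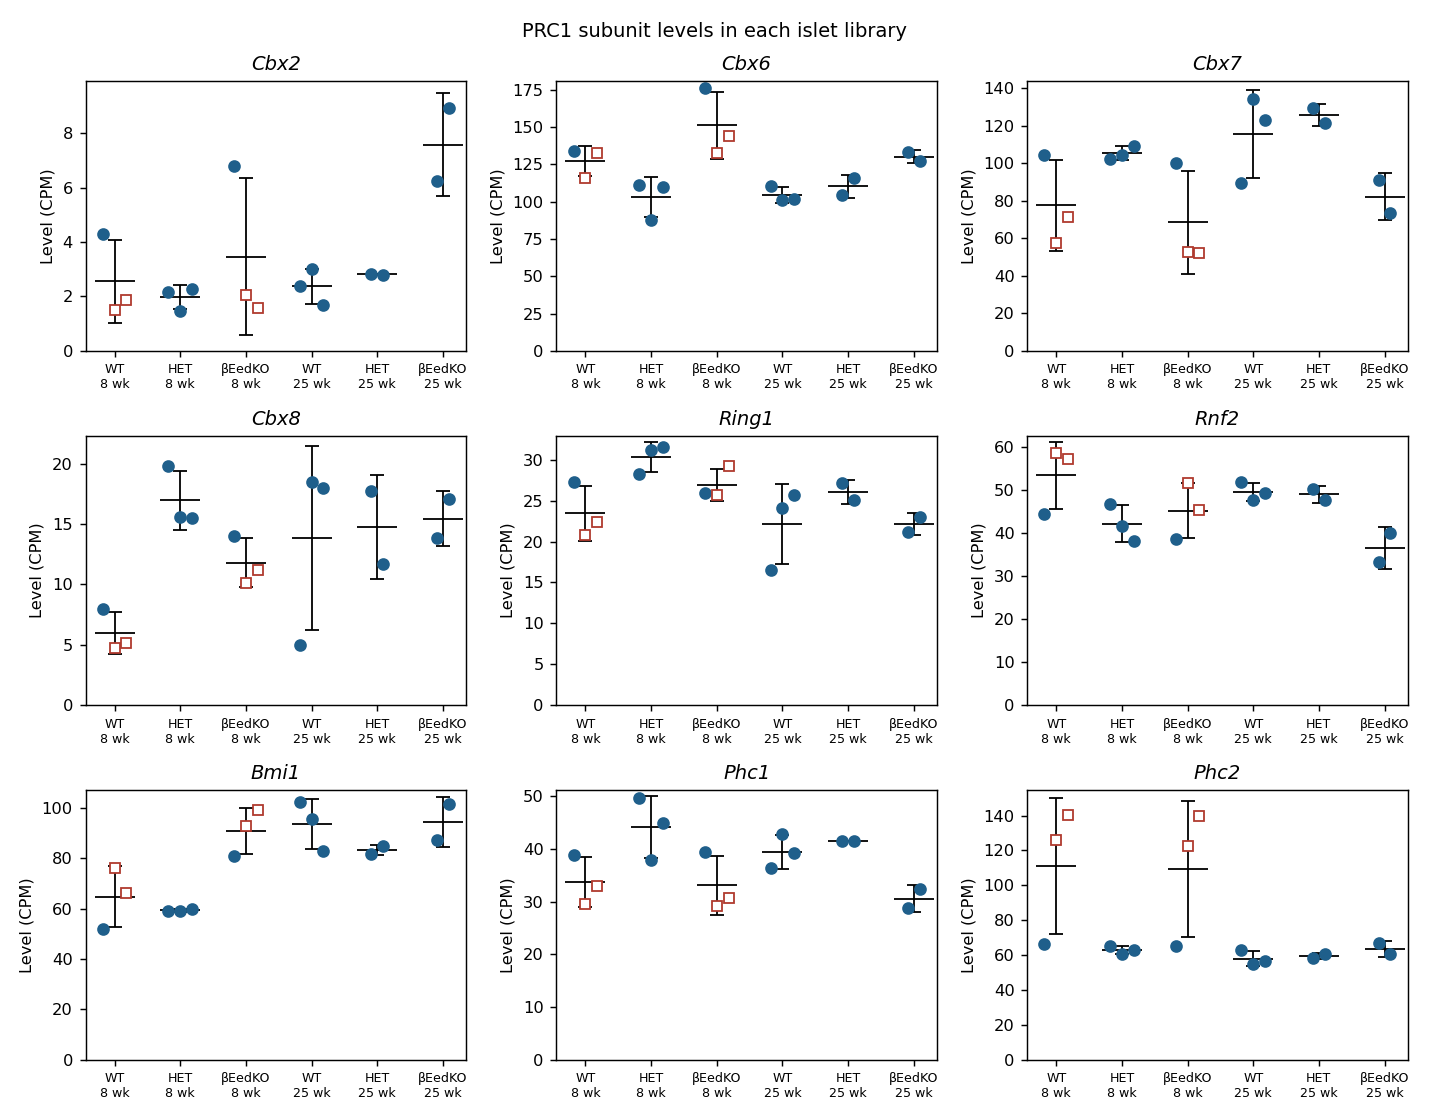
Level of each gene in CPM (y axis, from 0) in the 16 libraries by group, with bars for the mean ± SD. Open red squares are the 4 libraries with high interferon-induced genes and filled circles the other 12, and Phc2 shows the squares at 122 to 140 CPM above all circles.

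The other chromobox genes showed no common direction. Cbx6, another chromodomain subunit, was at 111, 101 and 102 CPM in wild type and 133 and 127 CPM in βEedKO at 25 weeks. The groups did not overlap, but the log2 fold change was small, 0.26 ± 0.19 (edgeR adjusted p = 0.502). At 8 weeks it was 134, 116 and 132 against 176, 133 and 144 CPM, with overlap (0.25 ± 0.17, edgeR adjusted p = 0.829). Cbx7, a repressor of the Ink4a/Arf locus, was at 89.4, 134 and 123 CPM in wild type and 91.0 and 73.2 CPM in βEedKO at 25 weeks. The lower wild-type library lay between the 2 βEedKO libraries, and the log2 fold change was -0.55 ± 0.35 (edgeR adjusted p = 0.427). At 8 weeks it was at 105, 57.3 and 71.2 CPM in wild type and 100.3, 52.7 and 52.3 CPM in βEedKO, with replicate 1 highest in both (-0.18 ± 0.31, edgeR adjusted p = 0.956). Cbx7 shares 100 bp with Apobec3 on the opposite strand.

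Cbx8, a chromobox protein of canonical PRC1, was 7.93, 4.71 and 5.19 CPM in wild type, 14.0, 10.1 and 11.2 CPM in βEedKO and 19.8, 15.6 and 15.5 CPM in heterozygous islets at 8 weeks. Each βEedKO and each heterozygous library lay above all 3 wild-type libraries. The log2 fold change of βEedKO against wild type was 0.99 ± 0.42 (edgeR adjusted p = 0.591). The ratio of means was 2.15 within the interferon-high libraries and 1.77 between the 2 replicates 1. At 25 weeks wild type was at 5.01, 18.5 and 17.9 CPM, βEedKO at 13.8 and 17.0 and heterozygous islets at 17.8 and 11.7 CPM. Wild-type replicate 2, the smallest library with 23 reads of Cbx8, sat at the level of the 8-week wild type while the other wild-type libraries were above both βEedKO libraries. The log2 fold change was 0.09 ± 0.46 (edgeR adjusted p = 0.946), and -0.30 without that library. The age difference in the βEedKO effect was -0.91 ± 0.62 (edgeR adjusted p = 0.842).

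The comparison of βEedKO with wild type at 8 weeks called 81 of 18685 genes, or 0.434%, and 0 of the 9 by edgeR. DESeq2 called 382 genes, or 1.25%, and 0 of the 9. Unadjusted p was under 0.05 for 2 of the 9, Cbx8 and Bmi1, and for 7.87% of all genes. Those 2 were higher without overlap, against 6.54% of all genes, and 0 of the 9 were lower without overlap, against 4.86%. The median log2 fold change of the 9 was 0.20. With the replicate number as a block, 0 genes were called at 8 weeks and 2 in the difference between ages.

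Bmi1 (PCGF4), a stem cell self-renewal factor known in islets as a repressor of the Ink4a/Arf locus, was 52.1, 76.3 and 66.2 CPM in wild type and 81.1, 92.9 and 99.2 CPM in βEedKO at 8 weeks. The heterozygous libraries were tight at 58.9, 59.1 and 60.0 CPM. All βEedKO libraries were above all wild-type and heterozygous libraries of that age. The log2 fold change was 0.49 ± 0.20 (edgeR adjusted p = 0.591), and 0.55 against wild type and heterozygotes together (edgeR adjusted p = 0.0390), where 503 genes or 2.67% were called. The ratio of means was 1.35 within the interferon-high libraries and 1.56 between the 2 replicates 1. At 25 weeks the genotypes overlapped, at 102, 95.6 and 82.9 CPM in wild type and 87.5 and 102 CPM in βEedKO (-0.04 ± 0.23, edgeR adjusted p = 0.949), and the sign turned with library size as the only scaling (0.23). The interaction of genotype and age was -0.53 ± 0.31 (edgeR adjusted p = 0.785), so a difference of the effect between ages was not established.

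Phc1, a polyhomeotic subunit, was 36.4, 42.8 and 39.1 CPM in wild type and 28.8 and 32.4 CPM in βEedKO at 25 weeks. The groups did not overlap, and heterozygous libraries, both at 41.5 CPM, lay with wild type. Its log2 fold change was -0.42 ± 0.20 (edgeR adjusted p = 0.278). At 8 weeks it was 38.8, 29.5 and 32.9 against 39.5, 29.1 and 30.7 CPM (-0.03 ± 0.18, edgeR adjusted p = 0.991). Phc2, its paralog, overlapped between genotypes at both ages, with log2 fold changes of 0.08 ± 0.38 at 25 weeks and -0.02 ± 0.34 at 8 weeks (edgeR adjusted p = 0.939 and 0.998).

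At 25 weeks several cell type lists moved with genotype. Besides the β cell markers, 1 of 4 α cell, 3 of 5 duct and 2 of 5 mesenchymal markers were higher in βEedKO. The duct list summed to 557 and 618 CPM in βEedKO against 220 to 284 CPM in wild type. Spp1 made up most of that rise, at 468 and 316 CPM against 28.4 to 58.6 CPM, while Krt7, the most abundant duct marker in wild type, was lower without overlap, at 104 and 125 CPM against 168 to 218 CPM (log2 fold change -0.80 ± 0.22, edgeR adjusted p = 0.0588). The acinar list was at 8364 and 248035 CPM in the 2 βEedKO libraries, and 18692 to 135547 CPM in wild type. No cycling, δ and PP, endothelial, acinar or macrophage marker passed. The part of these cells in the values of Cbx2, Cbx6, Rnf2 and Phc1 was not tested.

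**Figure D4:**
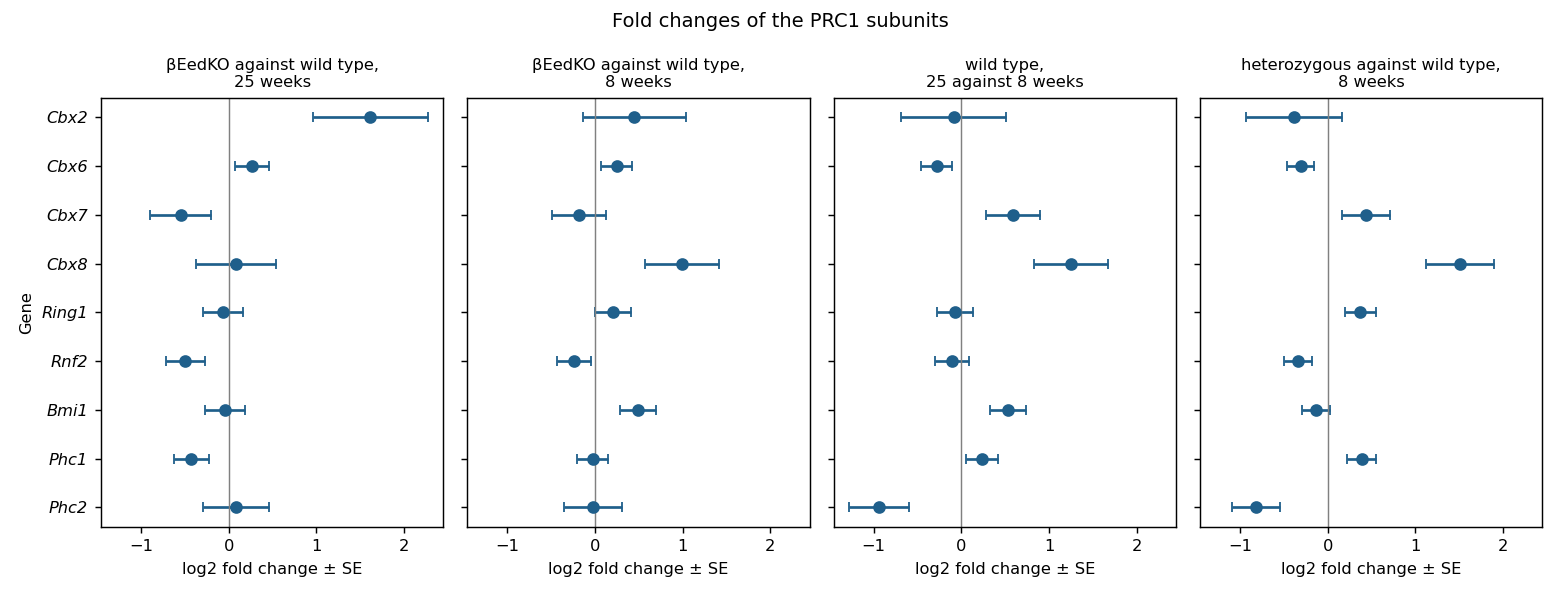
Log2 fold change with its SE (x axis) for the 9 genes in 4 comparisons fitted with edgeR. Cbx2 at 25 weeks and Cbx8 in heterozygous islets at 8 weeks have the highest values, 1.62 and 1.51, and no gene passed an adjusted p of 0.05.

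Phc2 separated the libraries by another feature. It was 126 and 140 CPM in wild-type replicates 3 and 4 and 122 and 140 CPM in βEedKO replicates 4 and 5 at 8 weeks, and 54.6 to 66.9 CPM in all other 12 libraries. Those 4 libraries are the interferon-high ones. In Cbx7 the order was turned, with 52.3 to 71.2 CPM in the 4 and 73.2 to 134 CPM in the 12. Among 18828 genes, 8.18% were above and 5.76% below in all 4 against all 12. Phc2 and Cbx7 were 1 of 9 in each direction, so the counts were near the shares of all genes. Cbx8 was 4.71 to 11.2 CPM in the 4 and 5.01 to 19.8 CPM in the 12, with overlap. Within the 4 and between the 2 replicates 1, the βEedKO to wild-type ratio of Phc2 was 0.986 and 0.984. The 4 are known only from their values, both genotypes are among them, and what sets them apart was not tested.

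**Figure D5:**
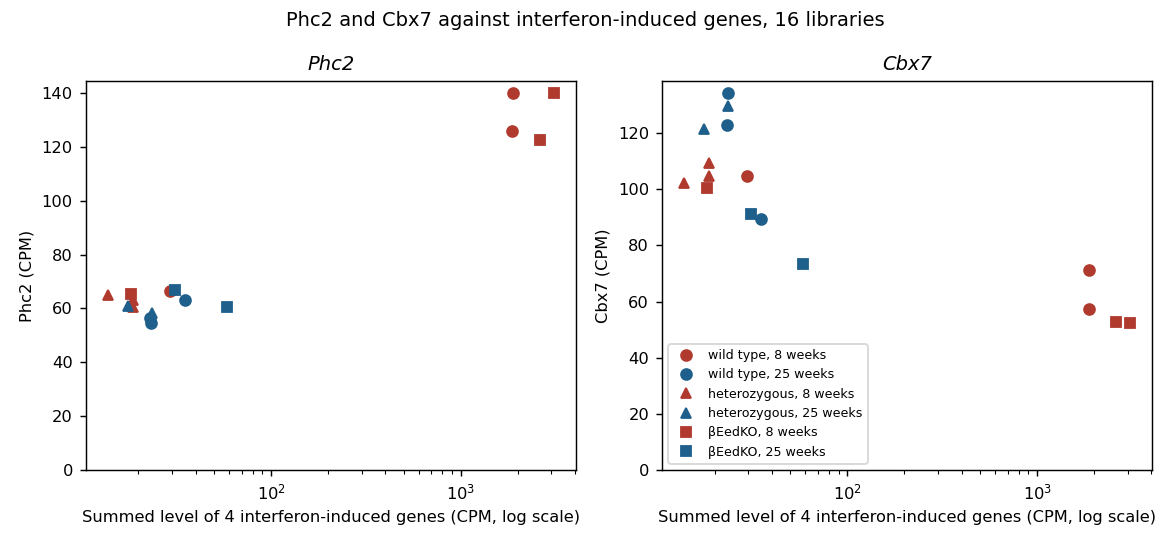
Level of Phc2 (left) and Cbx7 (right) in CPM against the summed level of 4 interferon-induced genes (log scale) in 16 libraries, with shape for genotype and colour for age. The 4 libraries at 1866 CPM or more hold the highest Phc2 and the lowest Cbx7 of all.

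Wild-type islets at 25 against 8 weeks gave no call in any gene (0 of 18685, 0%, edgeR). There were 1898 genes (10.2%) at an unadjusted p under 0.05, and DESeq2 called 143 (0.468%). Of the 9, none was called by either tool and 3 had an unadjusted p under 0.05. Cbx8 was higher by 1.25 ± 0.42 on the log2 scale, Phc2 lower at -0.94 ± 0.34 and Bmi1 higher by 0.53 ± 0.20 (edgeR adjusted p = 0.489 each). Without overlap, Bmi1 was higher (1 of 9 against 7.08% of genes) and Cbx6 and Phc2 lower (2 of 9 against 8.95%). The Phc2 difference moved with the interferon class. Among low-interferon libraries, with 1 wild type at 8 weeks at 66.5 CPM against 63.0, 54.6 and 56.4 CPM, it was -0.15, while Bmi1 was at 0.89 and Cbx8 at 0.88 (edgeR adjusted p = 1 for each, the lone library taken to vary like the others).

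In βEedKO at 25 against 8 weeks, 281 of 18685 genes (1.5%) and 0 of the 9 were called by edgeR, with 0 of the 9 at an unadjusted p under 0.05 against 14.1% of genes, and 0 by DESeq2 against 3.05%. Cbx2 was at 1.08 ± 0.64 and Phc2 at -0.84 ± 0.38 (edgeR adjusted p = 0.476 and 0.361). Among low-interferon libraries, with 1 βEedKO library at 8 weeks, they were 0.14 and -0.06. Ring1 was lower without overlap (1 of 9 against 11.3% of genes), and 0 of 9 were higher against 17.3%. The genotype effect differed between the ages in 37 of 18685 genes (0.198%) and 0 of the 9, with 0 at an unadjusted p under 0.05 against 7.76% of genes, and 0 by DESeq2 against 1.09%.

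In heterozygous islets at 25 weeks, Eed was at 16.3 and 16.9 CPM, below every wild-type library (log2 fold change -0.47 ± 0.21, edgeR adjusted p = 1). No gene was called by edgeR (0 of 18828, 0%), 210 genes (1.12%) had an unadjusted p under 0.05 and DESeq2 called 2 (0.00643%). The 9 genes had log2 fold changes from -0.17 (Bmi1) to 0.25 (Cbx2). None of them had an unadjusted p under 0.05 and none was called by DESeq2. With 2 libraries against 3, small differences were not detectable. None of the 9 separated the groups, where 8.91% of genes were higher and 7.06% lower without overlap.

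At 8 weeks edgeR called 0 of 18828 genes (0%) between heterozygous and wild type, with 2743 (14.6%) at an unadjusted p under 0.05. DESeq2 called 399 of 31096 genes (1.28%). Of the 9, 3 had an unadjusted p under 0.05, with Cbx8 at 1.51 ± 0.39, Phc2 at -0.82 ± 0.28 and Phc1 at 0.39 ± 0.17 on the log2 scale (edgeR adjusted p = 0.223, 0.261 and 0.314). DESeq2 called Cbx8 (1.497, adjusted p = 0.0121). Without overlap, Cbx8 and Ring1 were higher (2 of 9 against 10.3% of genes) and Cbx6 and Phc2 lower (2 of 9 against 9.09%). Against the single wild-type library of low interferon class, Cbx8 was at 1.09 (edgeR adjusted p = 0.906) and Phc2 at -0.08 (adjusted p = 0.971). Since all 3 heterozygous libraries were of the low class and 2 of 3 wild-type libraries of the high class, genotype and class are largely confounded here. The βEedKO and heterozygous comparisons share the wild-type libraries.

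Of 17 other PRC1 and associated genes, 1 passed at 25 weeks between βEedKO and wild type and 0 at 8 weeks by edgeR, where 6.6 and 0.434% of all genes passed, so the count was near the share of all genes. The 1 was Kdm2b, which brings the non-canonical PRC1.1 complex to CpG islands. It measured 34.0, 58.5 and 48.8 CPM in wild type and 19.9 and 21.3 CPM in βEedKO, a log2 fold change of -1.25 ± 0.32 (edgeR adjusted p = 0.0432). The next by p were Pcgf1, a PRC1.1 subunit, at 0.73 ± 0.28 (adjusted p = 0.169), and Scml2 at 1.49 ± 0.76 (adjusted p = 0.310, 0 to 2.42 CPM). The median log2 fold change of the 17 was -0.13. Of 6 genes of the H2AK119 deubiquitinase list, 0 passed. Deubiquitinases remove the mark set by PRC1, and the 6 genes do not all encode such an enzyme or belong to 1 complex. Asxl2 was at -1.20 ± 0.38 (edgeR adjusted p = 0.0947), Asxl3 at 3.85 ± 1.34 on levels of 0 to 1.53 CPM (adjusted p = 0.130) and Usp16, an H2A deubiquitinase, at -0.56 ± 0.37 (adjusted p = 0.454).

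None of the remaining lists had a call at either age. The 3 HP1 chromobox genes, which bind H3K9 methylation in place of H3K27me3, were near 0 at 25 weeks, with Cbx1 at -0.19 ± 0.28, Cbx5 at -0.20 ± 0.30 and Cbx3 at -0.13 ± 0.37 on the log2 scale (edgeR adjusted p = 0.766, 0.782 and 0.895). Of 11 PRC2 genes, Phf1 (-0.85 ± 0.27), Eed (-0.69 ± 0.25) and Rbbp7 (-0.62 ± 0.28) had the lowest p, and none passed edgeR's adjusted threshold (0.0953, 0.142 and 0.255).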

How the data were processed

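For 16 bulk libraries the authors deposited whole-number counts, 1 value a gene. Per the labels, the kit was TruSeq RNA v2, reads were mapped to GRCm38 with TopHat2 2.0.13 and counted with featureCounts, and whether strand was used is not given in the sources used here. The authors also deposited chromatin state letters in 200 bp bins, made with EpicSeg from averaged replicates. No count column was left unused (0). Counts were analysed as deposited in R 4.3.3 with edgeR 4.0.16 (TMM, filterByExpr, quasi-likelihood test, Benjamini-Hochberg adjusted p under 0.05) and DESeq2 1.42.0 as an alternative. Wild type and βEedKO were compared in 1 fit of 4 groups (11 libraries) and heterozygous islets in a fit of all 16. SE is the absolute log2 fold change over the square root of F.

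Per the study's methods the libraries are biological replicates, each from 1 animal or a small pool, and p-values measure the spread between them. Deviations of same-numbered wild-type and βEedKO libraries correlated at 0.457 and 0.163 at 8 weeks and 0.176 and 0.255 at 25 weeks, so the number was also used as a block. At 25 weeks the 2 βEedKO libraries deviate from their mean as mirror images, so the values with the other βEedKO library are the same with the sign turned. Some libraries of different numbers correlated as much at 8 weeks, wild type 3 and 4 with βEedKO 5 at 0.450 and 0.329, all of the high interferon class. Wild type 3 with βEedKO 4, also of that class, was at 0.0085. Every pair of libraries in a group differed beyond counting noise. Counts were simulated for 16635 genes, all with the common spread of the fit (biological coefficient of variation 0.456). The 25-week test recovered 92.5% of genes changed by a log2 of 3 and 2.5% of those changed by 1. The 8-week test recovered 97.5 and 2.5%. These shares do not describe genes of smaller spread, as most of the 9 were by their SE. The 9 genes and all lists were chosen with earlier results of these data known. Named genes were all 9, and of the other Polycomb lists those called between βEedKO and wild type or, up to 3 per list, those of lowest p at 25 weeks. Symbols, lengths and starts came from GENCODE M21 and promoter windows from RefSeq. The study's methods name Gencode M9 for the counting, so lengths and overlaps given here may differ from those behind the counts. Alternatives were other scalings and filters, DESeq2, the block, pooled controls, fewer libraries and, added after seeing the data, the interferon class (4 genes summed above or below 500 CPM). Single-cell and human samples were not used here. Some genes of the lists are not reported here and were left out of the list counts and sums.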

Additional observations from a re-analysis of the deposited data

How the results depend on the processing

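With 2 or 3 libraries a group, changes near 1 on the log2 scale were mostly below detection in counts simulated at the common spread. For genes of smaller spread the limit was not simulated. Scaling set the sign of small values. In 783 member fold changes with 1 library left out, 39 changed sign and 2 became calls. Each library of a fit was left out in turn, including those outside the compared groups. The 783 are therefore not all tests of the libraries compared. In 603 under other settings, 37 changed sign and 5 became calls. The new calls when 1 library was left out were both between heterozygous and wild type at 8 weeks. Phc2 was called without wild-type 8 weeks replicate 1 (-1.15, edgeR adjusted p = 0.0401), in a fit that called 601 genes. That fit set interferon-low heterozygous libraries against interferon-high wild-type libraries only, so genotype and class cannot be told apart in it. Cbx8 was called without wild-type 25 weeks replicate 2 (1.48, edgeR adjusted p = 0.0489), in a fit that called 19 genes. No member was called in the other comparisons with any library left out. The cause of the changes below was not tested. Settings that use the interferon class were chosen after seeing the data.

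Under the replicate block, which changed no call of the 9 genes, genes called went to 0 at 8 weeks and 2 in the difference between ages. Ring1 turned to 0.079 at 25 weeks and 0.014 in the difference, and Phc2 to -0.035 in heterozygotes at 25 weeks. With the block and library size alone, 1988 genes were called at 25 weeks, 265 at 8 weeks, 241 in the difference, and 32 in heterozygotes at each age. Signs turned there for Ring1 at 25 weeks (0.17), for Cbx7, Rnf2, Phc1 and Phc2 at 8 weeks (0.0056, 0.079, 0.17 and 0.14), for Cbx6 and Phc2 in the difference (-0.13 and -0.0036), and for Rnf2 and Bmi1 in heterozygotes at 25 weeks (0.20 and 0.029).

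DESeq2 called 2070 genes between βEedKO and wild type at 25 weeks, 382 at 8 weeks and 332 in the difference, 143 with age in wild type, 930 with age in βEedKO, and 2 and 399 in heterozygotes at 25 and 8 weeks, 1 of them a member. Phc2 at 8 weeks was 0.0032 with DESeq2 and 0.0035 with its size factors. Library size alone called 11 genes in the difference, 1 with age in wild type and 168 in βEedKO. It turned Ring1 and Bmi1 at 25 weeks (0.21 and 0.23), Cbx7, Phc1 and Phc2 at 8 weeks (0.047, 0.18 and 0.13), Cbx2 and Ring1 with age in wild type (0.063 and 0.024) and Rnf2 in heterozygotes at 25 weeks (0.095). With no filter, 137 genes were called at 8 weeks, 73 in the difference, 8 with age in wild type and 5 in heterozygotes at 8 weeks, while Ring1 and Bmi1 at 25 weeks were 9.0e-06 and 0.027, and Rnf2 in heterozygotes at 25 weeks was 0.00094. A filter of 1 CPM in 3 libraries called 171 genes with age in βEedKO. Fitting the compared libraries alone called 11 genes at 8 weeks, 101 with age in βEedKO and 6 in heterozygotes at 8 weeks.

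With wild type and heterozygotes as 1 control, 2649 genes and 1 member were called at 25 weeks and 503 and 1 at 8 weeks, Bmi1 was 0.080 at 25 weeks and Phc2 0.33 at 8 weeks. The interferon batch term called 2532 genes and 2 members at 25 weeks, 183 genes at 8 weeks, 193 in the difference and 2 in heterozygotes at 8 weeks. At 25 weeks all libraries were of the low class, so there the term acted on p only through the shared spread. The term turned Rnf2 with age in wild type (0.18), Cbx7 with age in βEedKO (-0.22) and Cbx7 and Bmi1 in heterozygotes at 8 weeks (-0.068 and 0.12). Low-class libraries alone called 0 genes at 8 weeks, in the difference and with age in βEedKO, and 1 in heterozygotes at 8 weeks. At 8 weeks that class held 1 wild-type and 1 βEedKO library, so these counts say little. They turned Ring1 and Phc1 at 8 weeks (-0.060 and 0.035), Cbx6 in the difference (-0.15), Rnf2 with age in wild type (0.21), Cbx7 with age in βEedKO (-0.31) and Bmi1 in heterozygotes at 8 weeks (0.19). With only high-class 8-week libraries, 59 genes differed between the ages. By gene-body state, 0 of the 9 genes were in an active start site state.

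Leaving out 1 library, genes called between βEedKO and wild type ranged from 392 (without βEedKO replicate 3) to 1609 at 25 weeks, 18 (without wild-type replicate 4) to 135 (without βEedKO replicate 1) at 8 weeks and 10 to 40 in the difference, lowest without βEedKO 25 weeks replicate 2. With age they ranged from 0 to 5 in wild type and from 36 (without βEedKO 25 weeks replicate 2) to 386 (without βEedKO 8 weeks replicate 1) in βEedKO. In heterozygotes at 8 weeks they ranged from 0 to 601 (without wild-type replicate 1), with 0 to 1 member. At 25 weeks Cbx8 ranged from -0.30 to 0.34, Ring1 from -0.23 to 0.053, Bmi1 from -0.15 to 0.043 and Phc2 from -0.016 to 0.16. At 8 weeks Cbx2 ranged from -0.48 to 1.01, Cbx7 from -0.55 to 0.063, Phc1 from -0.16 to 0.058 and Phc2 from -0.30 to 0.25. In the difference, Cbx6 ranged from -0.081 to 0.12 and Phc2 from -0.19 to 0.38. With age, Cbx2 and Ring1 in wild type ranged from -0.35 to 0.47 and -0.19 to 0.094, and Bmi1 in βEedKO from -0.098 to 0.085. In heterozygotes at 25 weeks, Cbx7 ranged from -0.038 to 0.24, Cbx8 from -0.31 to 0.35, Rnf2 from -0.053 to 0.029 and Phc2 from -0.0019 to 0.10. At 8 weeks, Cbx2 ranged from -0.65 to 0.15 and Bmi1 from -0.33 to 0.0036.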
